A study of Mus musculus with 48 samples.

Results

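The 36 genes described here are known targets or regulators of p53, taken by symbol from a list, and 30 of them are among the 11313 genes of the deposited tables. The list was chosen with earlier results of these data known. The other 6 (Pmaip1, Gdf15, Perp, Cdkn2a, Trp53i11 and Ptp4a3) were not analysed here. RNA came from NIH 3T3 cells, an immortalised line of mouse embryonic fibroblasts that keeps a circadian clock in culture. The shBmal1 line carries a hairpin against Bmal1, the clock activator that the tables call Arntl, and the shCTRL line carries a control hairpin. Cells of both lines were grown in the same serum medium, received a pulse of concentrated horse serum that sets their clocks in step, and were collected at 12 times, every 2 h from 24 to 46 h. At each time 1 library was made of total RNA and 1 of the RNA made during a pulse of 4sU, a thiol-bearing uridine that can be tagged with biotin and pulled down. The 4 groups, shBmal1 total RNA, shBmal1 4sU RNA, shCTRL total RNA and shCTRL 4sU RNA, therefore had 12 libraries each. The labels give 1 line of each kind, so every p-value below measures the spread between single libraries and not between independent lines.

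The p53 protein, encoded by Trp53, is a transcription factor held at a low level by Mdm2, which marks it for destruction, and by Mdm4, which masks its activation domain. Mdm2 is itself a target of p53, so the pair forms a negative feedback loop. When DNA damage or other stress frees p53 from Mdm2, p53 switches on genes of growth arrest, DNA repair, metabolism and cell death. NIH 3T3 cells are known to have lost the Ink4a/Arf locus, whose Arf protein is an inhibitor of Mdm2.

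Mdm2, Gadd45a and Bax are shown with the 250 bases before a RefSeq transcript start. Each was named by the rule given under processing, and holds a motif match in this stretch. Only starts within 5 bases of the outer end of the gene were used, and other members with a match are listed below. The sequences are from RefSeq on GRCm38.p6, read 5′ to 3′ on the strand of the gene, which is the minus strand for each of these. They lie at chr10:117710759-117711008 (Mdm2), chr6:67037408-67037657 (Gadd45a) and chr7:45466899-45467148 (Bax). The start used lies at the outer end of the annotated gene for Mdm2 and Gadd45a, and 5 bases inside it for Bax. Capitals mark a p53 half-site, the ten-letter palindromic unit that p53 response elements carry in pairs, or, at the end of the Bax sequence only, the E-box CACGTG to which Bmal1 and Clock bind.

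Mdm2: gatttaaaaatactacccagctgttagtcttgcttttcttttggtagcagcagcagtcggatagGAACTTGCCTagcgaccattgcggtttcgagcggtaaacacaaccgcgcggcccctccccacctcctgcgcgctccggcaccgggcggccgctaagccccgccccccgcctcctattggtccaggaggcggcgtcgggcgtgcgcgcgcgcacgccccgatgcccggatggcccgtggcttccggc

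Gadd45a: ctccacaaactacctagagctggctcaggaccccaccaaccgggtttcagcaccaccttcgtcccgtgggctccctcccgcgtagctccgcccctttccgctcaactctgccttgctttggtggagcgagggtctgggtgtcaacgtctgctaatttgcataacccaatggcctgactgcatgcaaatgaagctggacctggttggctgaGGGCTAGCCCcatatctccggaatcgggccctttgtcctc

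Bax: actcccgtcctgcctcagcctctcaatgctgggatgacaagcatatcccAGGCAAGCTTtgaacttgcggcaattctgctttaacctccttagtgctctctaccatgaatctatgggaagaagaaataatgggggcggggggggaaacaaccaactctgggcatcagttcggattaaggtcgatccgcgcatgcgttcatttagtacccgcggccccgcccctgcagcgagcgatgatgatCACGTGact

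The half-site began 186 bases before the start in Mdm2, 40 in Gadd45a and 201 in Bax. The Bax E-box began 9 bases before the start, and a second one lay 35 bases after it, outside the stretch shown. Both motifs read the same on either strand, and no 2 matches overlapped in these sequences. Of 30 members, 24 had a promoter window of 300 bases, from 250 before to 50 after a start, and several had more than 1. A half-site was in the window of 11 of these 24 members, against 9.55% of 27025 gene symbols with a window. The 11 were Aen, Bax, Ccng1, Ei24, Gadd45a, Mdm2, Polk, Ppm1d, Rps27l, Sesn1 and Trp53. An E-box was in the window of 6 of the 24 members (Aen, Bax, Bbc3, Eda2r, Fas and Trp53), against 8.09% of the symbols. Such matches describe letters in a window and are not evidence of binding.

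Depth was 50977879 to 69829031 reads in the shBmal1 total RNA libraries and 53931845 to 76260143 in the shCTRL ones, with 51841130 to 67576474 and 48873013 to 71451107 in the shBmal1 and shCTRL 4sU libraries. Values are RPKM, reads per kilobase of the gene relative to the size of the library, scaled between libraries by their median ratio. Differences are log2 shBmal1 minus shCTRL over the 12 times with their standard error (SE) from limma, called at an adjusted p under 0.05 over all genes tested. The targeted gene Arntl had 2.25, 3.95 and 4.71 RPKM (lowest, median, highest library) in shBmal1 total RNA and 1.33, 8.74 and 17.3 RPKM in shCTRL total RNA. It was lower in shBmal1 by limma (-0.92 ± 0.0809, adjusted p = 3.59e-09), at 9 of 12 times, while its 4sU introns were higher (0.57 ± 0.0809, adjusted p = 1.57e-05). Fibroblast markers summed to 4338 to 5168 RPKM in shBmal1 and 5191 to 5964 RPKM in shCTRL, and 7 of 9 such markers were lower in shBmal1. The fibroblast markers listed include Col1a1, Col1a2 and Pdgfra. Of other cell types, the leukocyte markers Cd68, Lyz2 and Cd14 summed to 17.2 to 25.2 RPKM in shBmal1 and 12.8 to 20.0 RPKM in shCTRL, and the epithelial marker Krt14 had 7.64 to 13.6 RPKM in shBmal1 and 2.09 to 4.32 RPKM in shCTRL. The endothelial marker Cdh5 stayed below 1 RPKM, and the adipocyte marker Plin4 had 2.18 to 2.86 RPKM in shBmal1 and 2.86 to 4.36 RPKM in shCTRL. Ptprc, Itgam, Pecam1 and Epcam were not analysed here. The part of cell makeup in the differences below was not tested, and in bulk RNA a change in the share of some cells and a change of RNA per cell cannot be told apart.

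Most of the p53 target genes had more RNA in the shBmal1 line. In total RNA exons, 21 of 30 members were higher in shBmal1, 4 were lower (Rrm2b, Gadd45a, Sesn1 and Mdm4) and 5 were not called (Ppm1d, Fas, Ei24, Ddb2 and Tigar). Many genes differed between these lines: 34.4% of 10912 genes tested were called higher and 33.1% lower, 67.6% in all. The median difference was 0.49 over the members, against 0.01 over all genes tested. The libraries of the 2 lines did not overlap for 15 of the 30 members, against 13.0% of all genes. All 30 members passed the filter on low exon values, with medians from 167 reads per library (Tigar) to 15062 (Trp53) in shBmal1 total RNA.

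**Figure D1:**
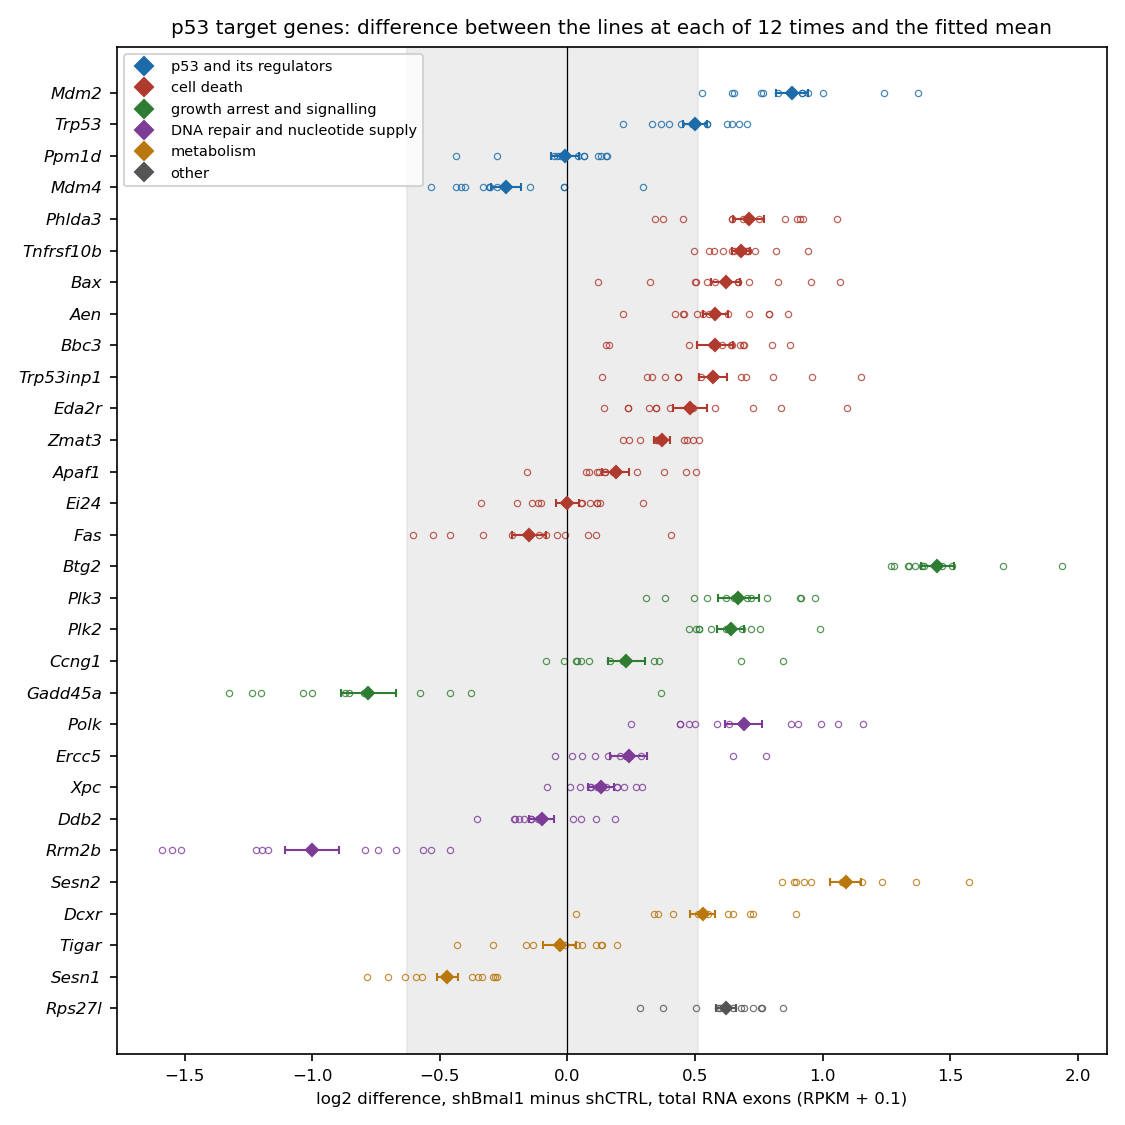
Log2 difference of total RNA exon RPKM, shBmal1 minus shCTRL (x axis), for the 30 members (y axis), grouped by role. Open circles are the 12 times, diamonds with bars the fitted mean ± SE, and the grey band holds the middle 90% of all genes tested; 21 diamonds are called to the right of 0 and 4 to its left.

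Among p53 and its regulators, Trp53 and Mdm2 were higher in shBmal1 and Mdm4 was lower. Trp53 (chromosome 11, 69580348 to 69591873, RefSeq on GRCm38.p6 as for the genes below) had 114, 133 and 171 RPKM as its lowest, median and highest value in shBmal1, against 88.2, 92.6 and 110 RPKM in shCTRL. Every shBmal1 library lay above every shCTRL library (0.50 ± 0.0454, adjusted p = 6.10e-09). The 5′ end of Trp53 faces the antisense gene Wrap53, and no source used here says whether reads were counted by strand. Mdm2 (chromosome 10, 117688875 to 117710758) had 32.3, 41.9 and 59.7 RPKM in shBmal1, against 20.6, 22.9 and 25.8 RPKM in shCTRL. Here too the lines did not overlap (0.88 ± 0.0643, adjusted p = 2.06e-10), a 1.84-fold difference. Mdm4 (chromosome 1, 132986105 to 133030587) had 3.59, 4.40 and 5.35 RPKM in shBmal1, against 3.69, 5.28 and 5.98 RPKM in shCTRL. It was lower in shBmal1 at 11 of 12 times with wide overlap (-0.24 ± 0.0589, adjusted p = 0.00124). Mdm4 has a long transcript, and with each library centred within bins of transcript length its difference was -0.01 (adjusted p = 0.912). Ppm1d, the phosphatase Wip1 that switches p53 signalling off, differed by -0.01 ± 0.0553 and was not called.

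Of the 11 cell-death members with values, 9 were higher in shBmal1, none was lower and 2 were not called. Of all genes tested, 34.4% were called higher and 33.1% lower, and whether the roles differed was not tested. Phlda3 (chromosome 1, 135766085 to 135769134), which restrains the survival kinase Akt, had 120, 153 and 212 RPKM in shBmal1, against 85.1, 95.2 and 112 RPKM in shCTRL (0.71 ± 0.0614, adjusted p = 2.61e-09), without overlap. Tnfrsf10b (chromosome 14, 69767472 to 69784411), the mouse death receptor for the ligand TRAIL, had 19.8, 21.7 and 24.5 RPKM in shBmal1, against 12.5, 13.4 and 14.6 RPKM in shCTRL. Its lines were also apart (0.68 ± 0.0336, adjusted p = 3.38e-13). Bax (chromosome 7, 45461695 to 45466903), which opens the mitochondrial outer membrane, had 38.4, 56.6 and 75.6 RPKM in shBmal1, against 34.0, 36.5 and 43.5 RPKM in shCTRL. Bax was higher in shBmal1 at all 12 times (0.62 ± 0.0579, adjusted p = 8.17e-09), with overlap because its 34-h shBmal1 library was low. Aen (chromosome 7, 78895927 to 78911209), an exonuclease that acts in apoptosis, had 13.5, 16.2 and 22.5 RPKM in shBmal1, against 10.6, 11.2 and 12.3 RPKM in shCTRL. No shBmal1 library of Aen was as low as any shCTRL library (0.58 ± 0.0499, adjusted p = 2.73e-09). Bbc3 (chromosome 7, 16308398 to 16318334), which encodes the death activator Puma, had 20.7, 28.1 and 34.3 RPKM in shBmal1, against 15.6, 18.6 and 22.5 RPKM in shCTRL (0.58 ± 0.0707, adjusted p = 3.66e-07).

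The other cell-death members differed less. Trp53inp1 (chromosome 4, 11156441 to 11174379), a cofactor that promotes p53 activity, had 16.4, 19.7 and 27.1 RPKM in shBmal1, against 9.71, 13.8 and 15.3 RPKM in shCTRL (0.57 ± 0.0557, adjusted p = 1.66e-08). Eda2r (chromosome X, 97333837 to 97377234), a receptor of the TNF family, had 4.77, 5.53 and 7.68 RPKM in shBmal1, against 3.30, 4.24 and 5.17 RPKM in shCTRL (0.48 ± 0.0654, adjusted p = 1.76e-06). The lines of Trp53inp1 were apart, while those of Eda2r overlapped although shBmal1 was higher at all 12 times. Zmat3, an RNA-binding protein, differed by 0.37 ± 0.0311 and Apaf1, the scaffold of the apoptosome, by 0.19 ± 0.0532, both called. With length centring they differed by 0.61 and 0.43. Ei24 differed by 0.00 ± 0.0460 and the death receptor gene Fas by -0.15 ± 0.0674, and neither was called. Fas was called lower without the 26-, 30- or 34-h libraries, at -0.17, -0.19 and -0.20, and at -0.29 with the length centring.

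The growth-arrest group held the member with the largest difference. Btg2 (chromosome 1, 134074865 to 134079155), which recruits the deadenylase complex and slows the cell cycle, had 14.8, 17.3 and 24.0 RPKM in shBmal1, against 5.59, 6.63 and 7.76 RPKM in shCTRL. The lowest shBmal1 library had a level well above the highest shCTRL library (1.45 ± 0.0650, adjusted p = 9.13e-14), and the fitted fold was 2.74. The polo-like kinase gene Plk2 (chromosome 13, 110395044 to 110400844) had 37.4, 42 and 67.7 RPKM in shBmal1, against 22.9, 28.1 and 34.0 RPKM in shCTRL (0.64 ± 0.0532, adjusted p = 1.65e-09). Plk3 (chromosome 4, 117128655 to 117133963), a second kinase of that family, had 6.46, 8.5 and 12.4 RPKM in shBmal1, against 4.32, 5.43 and 6.53 RPKM in shCTRL (0.67 ± 0.0793, adjusted p = 2.79e-07). Plk2 was apart in the 2 lines and Plk3 overlapped only narrowly. Ccng1 (chromosome 11, 40748552 to 40755309), a cyclin that works with Mdm2, had 32.8, 36.4 and 56.1 RPKM in shBmal1, against 23.7, 33.4 and 40.7 RPKM in shCTRL, a small difference with wide overlap (0.23 ± 0.0728, adjusted p = 0.00954).

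Gadd45a (chromosome 6, 67035096 to 67037407), a stress sensor that binds kinases and cyclin B complexes, went the other way. It had 23.8, 41.0 and 102 RPKM in shBmal1, against 54.4, 72.0 and 79.1 RPKM in shCTRL. It was lower in shBmal1 at 11 of 12 times (-0.78 ± 0.108, adjusted p = 2.32e-06). The exception was the last library: at 46 h shBmal1 had 102 RPKM and shCTRL 79.1 RPKM, while the next highest shBmal1 library had 54.9 RPKM. The 46-h shBmal1 library also held the highest value of Plk2 (67.7 RPKM, next 48.8), Plk3 (12.4, next 9.72) and Sesn2 (51.7, next 48.4). Without the 46-h libraries the difference of Gadd45a was -0.87 (adjusted p = 1.69e-12), and those of Plk2, Plk3 and Sesn2 were 0.60, 0.64 and 1.04, all still called.

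In DNA repair and nucleotide supply, 3 of 5 members were higher in shBmal1 and 1 was lower, against 34.4% and 33.1% of all genes. Polk (chromosome 13, 96480687 to 96542579), a polymerase that copies past damaged bases, had 1.71, 2.04 and 2.65 RPKM in shBmal1, against 1.03, 1.23 and 1.66 RPKM in shCTRL, without overlap (0.69 ± 0.0742, adjusted p = 6.51e-08; 0.45 with a pseudocount of 1). Rrm2b (chromosome 15, 37923952 to 37961119), the p53-induced subunit of ribonucleotide reductase, had 0.446, 0.804 and 1.19 RPKM in shBmal1, against 1.20, 1.56 and 2.04 RPKM in shCTRL. Every shBmal1 library lay below every shCTRL library (-1.0 ± 0.106, adjusted p = 5.01e-08). These levels rest on 127 to 389 reads per shBmal1 library and 287 to 706 per shCTRL library, and with a pseudocount of 1 the difference shrank to -0.57. The nucleotide excision repair genes Ercc5 and Xpc differed by 0.24 ± 0.0717 and 0.13 ± 0.0511, both called, and Ddb2 by -0.10 ± 0.0487, not called. The transcript length behind the Ddb2 values was not the same in the 2 lines (2211 bases in shBmal1, 2284 in shCTRL). The call of Xpc was lost without the 24-, 28-, 36-, 42- or 44-h libraries (adjusted p = 0.0501 to 0.0949). On 1 common length Ddb2 differed by -0.14 (adjusted p = 0.0148).

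The 2 sestrins, stress proteins that inhibit the growth kinase complex mTORC1, moved in opposite directions. Sesn2 (chromosome 4, 132492804 to 132510456) had 31.6, 38.1 and 51.7 RPKM in shBmal1, against 16.6, 18.8 and 20.2 RPKM in shCTRL (1.09 ± 0.0621, adjusted p = 4.17e-12). Sesn1 (chromosome 10, 41810574 to 41908436) had 5.10, 6.41 and 7.98 RPKM in shBmal1, against 8.01, 8.83 and 9.80 RPKM in shCTRL (-0.47 ± 0.0417, adjusted p = 3.15e-09). Neither gene overlapped between the lines. Dcxr (chromosome 11, 120724546 to 120727284), a carbonyl reductase of sugar metabolism, had 64.5, 77.2 and 96.5 RPKM in shBmal1, against 47.9, 53 and 64.5 RPKM in shCTRL, where the extremes touch at the digits given but did not overlap (0.53 ± 0.0502, adjusted p = 1.11e-08). Tigar, which lowers the level of a glycolysis activator, differed by -0.03 ± 0.0641 and was not called. Rps27l (chromosome 9, 66944624 to 66949522), close kin of the ribosomal protein gene Rps27, had 63.3, 80.0 and 97.4 RPKM in shBmal1, against 46, 50.7 and 60.7 RPKM in shCTRL (0.62 ± 0.0388, adjusted p = 1.64e-11). Its value is uncertain where reads could fall on either of these near-identical genes.

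**Figure D2:**
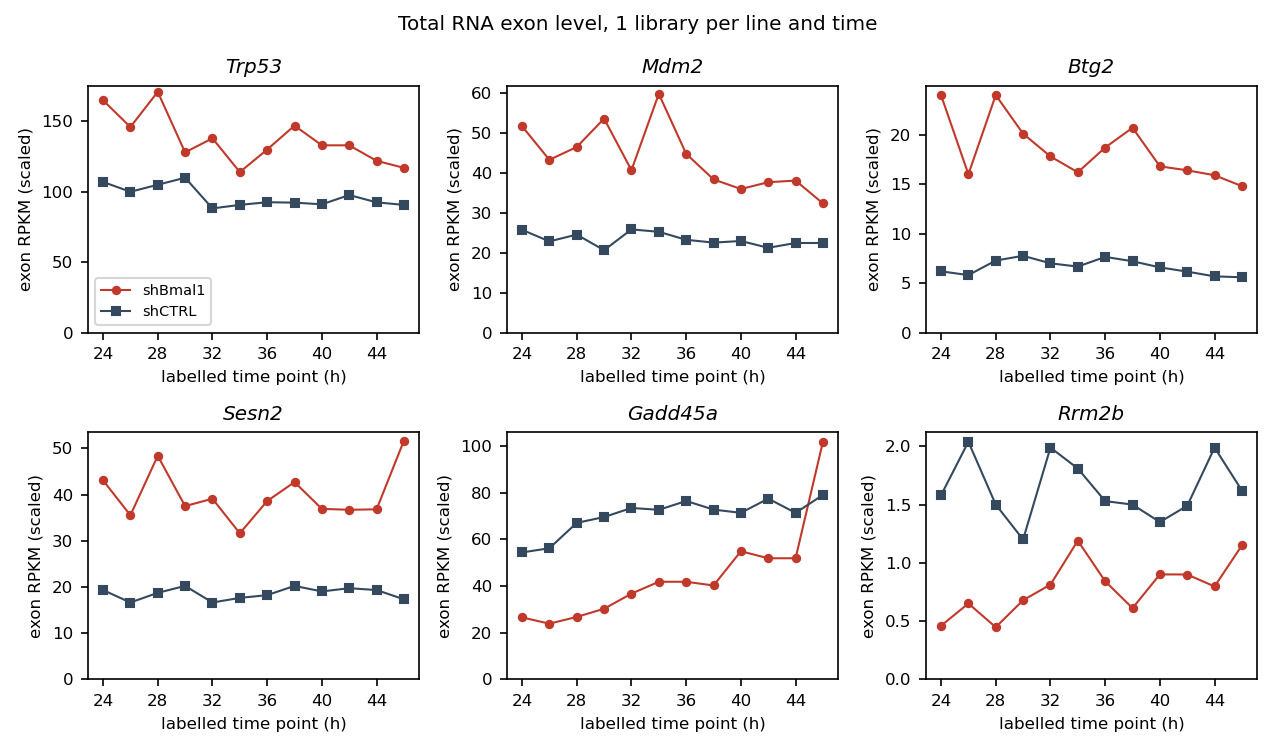
Scaled total RNA exon RPKM (y axis, from 0) of 6 members by labelled time point in h (x axis), with circles for shBmal1 and squares for shCTRL, 1 library per point. Trp53, Mdm2, Btg2 and Sesn2 lie higher and Rrm2b lower in shBmal1 at all 12 times, while Gadd45a crosses at 46 h.

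Introns of 4sU RNA are read as a measure of synthesis, since introns are removed soon after they are made. In that layer 21 of 29 members were higher in shBmal1, 3 were lower and 5 were not called, against 22.0% and 22.4% of 10509 genes (44.4% in all); Tigar fell under the filter on low intron values. The median difference was 0.45 over the members and 0.00 over all genes. In 4sU exons 22 of 30 were higher and 4 lower, against 27.5% and 26.9% of 11014 genes. In total introns 21 of 29 were higher and 5 lower, against 29.3% and 26.8% of 10019 genes. The lines did not overlap for 7 members in 4sU exons, against 6.44% of all genes, for 5 in 4sU introns, against 3.96%, and for 5 in total introns, against 6.01%. Of the 29 members tested in all 4 layers, 20 were called higher in all 4 and 2, Gadd45a and Sesn1, lower in all 4. The share of all genes called alike in all 4 layers was not computed. Among the 20, the 4sU exon calls of Apaf1 and Ccng1 were lost without time terms. The total intron call of Trp53inp1 was lost without 24, 26, 30, 34, 36, 42 or 44 h. In opposite directions 1 member was called: Ppm1d was higher in 4sU exons (0.13) and lower in 4sU introns (-0.11). Both of these calls were lost with time as a replicate block. These layers share cultures, and exons and introns of 1 RNA come from the same library, so they are not independent. Deposited intron RPKM is on another scale in shBmal1 4sU, where its total was 1.35 to 1.39 times the exon total. Without scaling, the median of all genes in 4sU introns was -0.45 and that of the members -0.02, with 7 members higher and 11 lower; Trp53, Trp53inp1 and Zmat3 were then called lower, at -0.22, -0.27 and -0.17. Apaf1 (-0.12), Bbc3 (-0.12), Ei24 (-0.08), Ccng1 (-0.02), Bax (-0.01) and Rps27l (0.00) were then not called. Nor were Tnfrsf10b (0.12), Eda2r (0.11), Phlda3 (0.13), Plk3 (0.07) and Ercc5 (0.11). Mdm4 (-0.53), Fas (-0.59), Ddb2 (-0.57), Xpc (-0.47) and Rrm2b (-0.36), not called with scaling, were called lower without it. Directions in 4sU introns are therefore relative to the median gene.

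Btg2 and Mdm2 had the largest differences of the members in 4sU introns. Btg2 introns had 4.25, 6.26 and 10.2 RPKM in shBmal1 4sU, against 1.76, 2.59 and 3.56 RPKM in shCTRL 4sU (1.24 ± 0.107, adjusted p = 3.60e-08). Mdm2 introns had 3.5, 6.16 and 8.46 RPKM in shBmal1 4sU, against 2.22, 2.51 and 3.59 RPKM in shCTRL 4sU (1.16 ± 0.0871, adjusted p = 5.73e-09). Btg2 libraries were apart in the 2 lines, and Mdm2 libraries overlapped narrowly. Sesn2 introns differed by 0.90 ± 0.0740 and Dcxr introns by 0.88 ± 0.0823, both without overlap. Gadd45a introns had 11.9, 16.1 and 44.9 RPKM in shBmal1 4sU, against 18.7, 29.0 and 33.1 RPKM in shCTRL 4sU (-0.62 ± 0.124, adjusted p = 0.000510), and the high value was again the 46-h library. Trp53 introns had 3.93, 4.20 and 5.25 RPKM in shBmal1 4sU, against 3.21, 3.65 and 4.10 RPKM in shCTRL 4sU, a smaller difference than in its exons (0.26 ± 0.0422, adjusted p = 7.43e-05).

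Whether exons and introns differed to unlike degree was tested on total exon minus 4sU intron, both on the log2 scale and from the same culture. By that measure 7 of 29 members were higher in shBmal1 and 9 lower, against 19.5% and 24.7% of 10309 genes (44.2% in all), with a median of 0.02 over the members and -0.01 over all genes. Rrm2b stood out: the log2 exon minus intron value was 1.27, 1.91 and 2.26 (lowest, median, highest) in shBmal1 and 2.75, 2.91 and 3.31 in shCTRL. The lines did not overlap (-1.08 ± 0.0811, adjusted p = 3.41e-09), against 4.85% of all genes without overlap. Rrm2b introns in 4sU RNA had 0.189, 0.209 and 0.266 RPKM in shBmal1, against 0.143, 0.209 and 0.224 RPKM in shCTRL, and were not called (0.07 ± 0.0585). Its total introns were not called either (-0.06, adjusted p = 0.543). Without scaling, where the median of all genes was also lower, its 4sU introns were called lower, at -0.36. Its 4sU exons, like its total exons, were lower in shBmal1 (-0.68 ± 0.0774, adjusted p = 4.38e-07). Ei24, a membrane protein of the endoplasmic reticulum, was level in total exons but higher in 4sU introns (0.38 ± 0.0673, adjusted p = 0.000171), so that exon minus intron was -0.38 ± 0.0437 (adjusted p = 1.18e-06). The transcript length behind the total exon values of Ei24 was 2288 bases in shBmal1 and 2199 in shCTRL, with 2199 in both lines in 4sU RNA. On 1 common length its exon minus intron call was kept. Dcxr, Ercc5 and Mdm2 were also lower in exon minus intron, at -0.35 ± 0.0618, -0.33 ± 0.0941 and -0.28 ± 0.0638. Trp53inp1 and Trp53 were higher, at 0.37 ± 0.0423 and 0.24 ± 0.0533. Without scaling, 28 members were higher and 1 was lower by this measure, against a median of 0.53 over all genes; Rrm2b was the 1 lower, at -0.56, and 8 members called lower with scaling were called higher without it (Mdm2, Mdm4, Apaf1, Ei24, Ccng1, Ercc5, Sesn1 and Dcxr). With the larger pseudocounts (1 in exons, 0.2 in introns) the Rrm2b difference was -0.61 and still called.

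**Figure D3:**
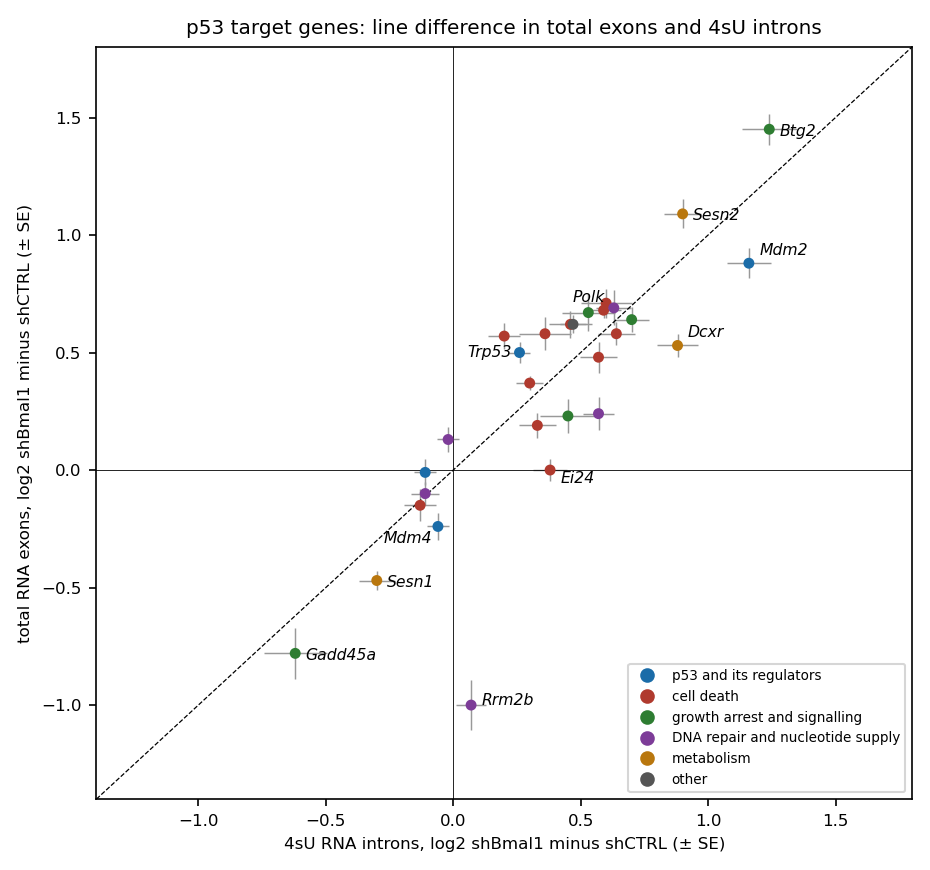
Log2 shBmal1 minus shCTRL in total RNA exons (y axis) against 4sU RNA introns (x axis) for the 29 members tested in both, with SE bars and role colours; the dashed line marks equal differences. Rrm2b lies at -1.0 in exons and 0.07 in introns, far below the line, and Ei24 at 0.00 and 0.38.

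The members differed widely in their 4sU share, the log2 level in 4sU exons minus that in total exons. A high value means that more of the RNA of a gene is newly made than for other genes of these libraries; it has no absolute scale. Per the labels, a larger part of the RNA went into the pull-down in shBmal1 than in shCTRL, and what this does to the share was not tested. Mdm2 averaged 0.76 ± 0.179 (SD, n = 12) in shBmal1 and 0.69 ± 0.154 in shCTRL, at the 96.3 and 96.0 percentile of all genes. Eda2r averaged 0.69 ± 0.161 in shBmal1 and 0.75 ± 0.118 in shCTRL. Btg2 averaged 0.73 ± 0.0748 in shBmal1 and 0.70 ± 0.190 in shCTRL. These 3 had the highest share by the mean of both lines. The lowest by that mean were Dcxr, at -0.74 ± 0.0798 in shBmal1 and -0.91 ± 0.114 in shCTRL, Trp53, at -0.75 ± 0.0362 in shBmal1 and -0.67 ± 0.0479 in shCTRL, and Bax, at -0.56 ± 0.133 in shBmal1 and -0.40 ± 0.0827 in shCTRL. Trp53 was at the 6.27 percentile in shBmal1 and the 7.81 percentile in shCTRL, so the gene of the regulator and the gene of its inhibitor Mdm2 lay at opposite ends of the range. Between the lines, 5 of 30 members had a higher share in shBmal1 and 5 a lower one, against 15.9% and 12.1% of 10870 genes. The higher ones were Ei24 (0.37 ± 0.0441), Rrm2b (0.32 ± 0.0614), Dcxr (0.17 ± 0.0380), Gadd45a (0.16 ± 0.0377) and Mdm4 (0.12 ± 0.0296). The Ei24 value rests on the unequal transcript lengths given above, and it ranged from 0.31 to 0.40 under the alternatives run. The lower ones were Rps27l (-0.29 ± 0.0539), Xpc (-0.25 ± 0.0511), Bax (-0.15 ± 0.0454), Tnfrsf10b (-0.14 ± 0.0441) and Trp53 (-0.08 ± 0.0236). The calls of Trp53, Tnfrsf10b and Bax were lost without single times: Trp53 without 28, 34, 40, 42 or 46 h (adjusted p = 0.0581 to 0.0811), Tnfrsf10b without 28, 30, 34, 38 or 42 h (0.0515 to 0.0783), and Bax without 26, 34 or 42 h (0.0505 to 0.0539). With time as a block those of Trp53 and Gadd45a were lost (adjusted p = 0.0567 and 0.0692), with length centring that of Mdm4 was lost (0.05, adjusted p = 0.233), and with a pseudocount of 1 the Rrm2b difference was 0.12. The lines overlapped for all 30 members, while 2.87% of all genes were apart.

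**Figure D4:**
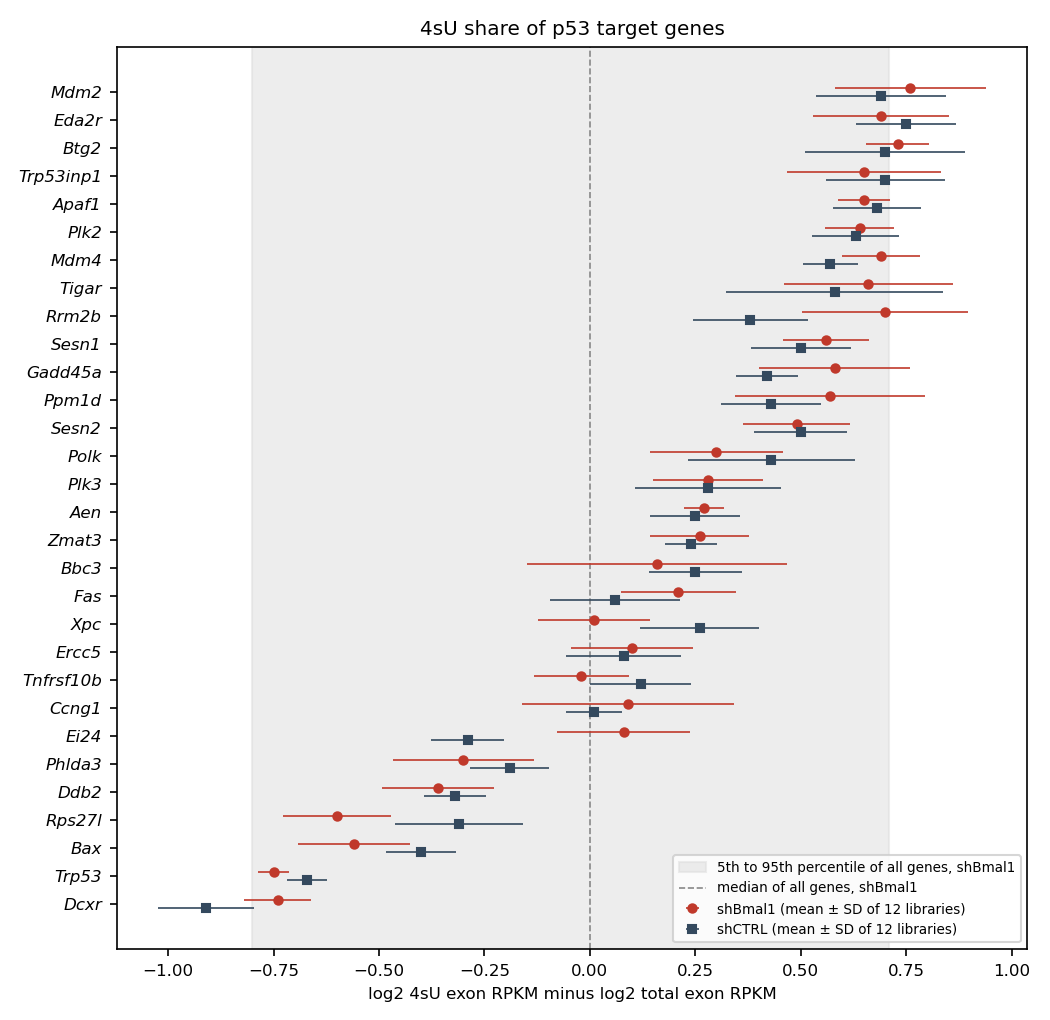
Log2 4sU exon minus total exon RPKM (x axis) of the 30 members (y axis), mean ± SD over 12 libraries, circles for shBmal1 and squares for shCTRL. The grey band and dashed line give the 5th to 95th percentile and the median of all genes in shBmal1; by the mean of both lines Mdm2, Eda2r and Btg2 are highest and Dcxr, Trp53 and Bax lowest, while in shBmal1 alone Rps27l (-0.60) lies below Bax (-0.56) and Rrm2b (0.70) above Eda2r (0.69).

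The study's title names RNA patterns of 24 and 12 h, so each line was tested for both periods. In shBmal1 a 24-h rhythm was called in total exons for 5 of 30 members (Apaf1, Fas, Gadd45a, Mdm2 and Sesn1), against 11.1% of all genes. In shBmal1 4sU exons it was called for 11 of 30, against 17.9%, and in shBmal1 4sU introns for 5 of 29 (Apaf1, Eda2r, Gadd45a, Mdm2 and Ppm1d), against 5.82%. In shCTRL limma called 0 members in these layers, where 3.60%, 1.98% and 1.12% of all genes were called and 4, 1 and 3 members had an unadjusted p under 0.05. That contrast alone does not show a difference between the lines. The test of the difference in 24-h rhythm called 0 members in each layer, against 0.806%, 1.06% and 0.285% of all genes. With 3, 11 and 7 members at an unadjusted p under 0.05, it neither showed nor excluded a difference. Of 12-h rhythms, limma called 0 members in either line and any layer, against 0.0183% of all genes in shBmal1 total exons and 0 genes elsewhere, with 13, 8 and 6 members in shBmal1 and 1, 1 and 0 in shCTRL at an unadjusted p under 0.05.

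Among the called genes Gadd45a had the largest amplitude, given in log2 units above the mean. In shBmal1 total exons it was 0.53 ± 0.108 with a fitted peak at 41.4 h (adjusted p = 0.00934), and in shBmal1 4sU introns 0.54 ± 0.124 with a peak at 43.0 h (adjusted p = 0.0351). Its total exons were lowest at 26 h, with 23.8 RPKM, and highest at 46 h, with 102 RPKM. The total exon call held in 11 of 12 leave-outs of a time (lost without 40 h) and the intron call in 5 of 12. Mdm2 peaked earlier, with an amplitude of 0.24 ± 0.0643 in shBmal1 total exons and a peak at 30.7 h (adjusted p = 0.0420), and 0.44 ± 0.0764 with a peak at 31.0 h in shBmal1 4sU exons (adjusted p = 0.00364). The first of these calls held in 3 of 12 leave-outs and the second in all 12. Eda2r, Ccng1 and Trp53inp1 peaked at 31.0, 31.2 and 33.4 h in shBmal1 4sU exons, with amplitudes of 0.34 ± 0.0739, 0.40 ± 0.107 and 0.31 ± 0.0854. Bbc3 peaked at 44 h in the same layer, with 0.42 ± 0.104. These calls held in 10 of 12 leave-outs for Eda2r, 4 of 12 for Ccng1, 4 of 12 for Trp53inp1 and 6 of 12 for Bbc3. The window of 12 times spans less than 1 full day, and with a linear trend in time added no member was called in these 3 layers, where 11, 10 and 6 of all genes were called in shBmal1. A rhythm and a drift in time cannot be told apart here.

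Single libraries bore on these courses. In shBmal1 total RNA the 34-h library held the highest value for 12 of 30 members and the lowest for 9. The 12 had a median transcript length of 4378 bases (Mdm2, Ccng1, Polk and Zmat3 among them) and the 9 of 1807 bases (Bax, Phlda3, Trp53 and Rps27l among them). Over all genes, transcripts of at least 4000 bases deviated from those under 1500 bases by 0.35 (log2) in that library, the top of a range of -0.26 to 0.35 for shBmal1 total RNA and -0.19 to 0.08 for shCTRL total RNA. Between the lines the median difference was -0.14 for the long transcripts and 0.13 for the short ones in total exons. By length class, members called higher in shBmal1 were 4 of 5 under 1500 bases, 10 of 16 from there to 4000 and 7 of 9 above. The member medians were 0.62, 0.36 and 0.37. The share of all genes called in each class was not computed, so whether length bears on these counts was not tested. Length centring gave a member median of 0.45 in total exons, against 0.49 without it. Among short members, the total exon differences of Rps27l, Dcxr, Bax and Phlda3 stayed called under every alternative run. They ranged from 0.50 to 0.71, 0.41 to 0.62, 0.48 to 0.71 and 0.57 to 0.80. Gadd45a, also short, ranged from -0.92 to -0.69. With libraries centred within length bins, the 24-h calls in shBmal1 4sU exons of Apaf1 and Zmat3 were lost (adjusted p = 0.0941 and 0.253), as was that of Apaf1 in 4sU introns (adjusted p = 0.0744). Without the 34-h libraries the 24-h calls in shBmal1 were 2 in total exons, 4 in 4sU exons and 1 in 4sU introns. Over all 10912 genes, 1046 were then called in total exons, against 1214 with all times. Without the 40-h libraries 376 genes were called there, so a loss of calls was not particular to 34 h. All-gene counts without 34 h are not given here for the 4sU layers. Whether the loss in those layers was particular to the members was not tested.

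Other genes of the pathway, from a second list of 45 tested genes, did not all share the direction of the members. Of 25 further p53 targets tested in total exons, 15 were higher in shBmal1 and 5 lower, against 34.4% and 33.1% of all genes tested. Their median was 0.19. Cdkn1a, the cell-cycle inhibitor p21 and the best-known p53 target, had 212, 288 and 384 RPKM in shBmal1, against 174, 210 and 268 RPKM in shCTRL (0.44 ± 0.0679, adjusted p = 9.39e-06), higher at all 12 times with overlap. By RPKM the 4 of the 45 with the largest differences were Epha2, a receptor kinase (1.22 ± 0.0620), Gtse1, which restrains p53 in the G2 phase (1.22 ± 0.105), the cytokine gene Lif (1.09 ± 0.0892) and the peptide transporter gene Tap1 (0.99 ± 0.0590). The value of Tap1 rests on unequal transcript lengths, 2932 bases in shBmal1 and 3894 in shCTRL. On 1 common length it was 0.59 (adjusted p = 2.81e-08), ranked 11 by size, and Thbs1, a matrix protein gene named after its value was seen, ranked 4 at -0.88, lower in shBmal1. With a pseudocount of 1 Lif differed by 0.54. Of 20 upstream kinases and cofactors of p53, 7 were higher and 11 lower in shBmal1, against the same 34.4% and 33.1%. Their median was -0.14, and that of all transcripts of at least 4000 bases was also -0.14. The 20 were not all long, with 798 bases for Rpl11 and 919 for Rps27a, and what length does to their median was not tested. With length centring Prkdc (-0.08), Crebbp (-0.04) and Cop1 (-0.04) were no longer called lower, while the other regulators called lower stayed so. Rpl11 (0.07) was then no longer called higher, and Trp53bp1 (0.26) was called higher. Of the further targets, the centring lost the higher calls of Cd82 (0.09) and Pold1 (0.15) and the lower call of Notch1 (-0.16). Trp53i13 (-0.26) was then called lower.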

How the data were processed

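RNA from 48 libraries (4 groups of 12, 1 library per group and time) was measured by strand-specific paired-end sequencing after ribosomal RNA depletion, per the labels' protocols. The authors deposited exon and intron RPKM per gene. The submitters' processing notes name Trim Galore, HOMER 4.11.1 and the builds mm10 and GRCm38.p6, while no aligner is named in the sources used here. Library totals and transcript lengths were recovered from the deposited RPKM, whose low values are whole multiples of 1 read (within 0.01). Recovered lengths differed between groups for 1208 of 11311 genes in exons. Spike-in values were not analysed here, so differences are relative to the median gene.

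Values were scaled by the median ratio within each layer and put on a log2 scale (pseudocount 0.1 for exons, 0.02 for introns, so folds of low genes are understated). limma 3.58.1 in R 4.3.3 (trend and robust) was fitted to genes whose mean reached 0.5 RPKM in exons or 0.1 in introns, with line means and 24-h and 12-h terms per line; p-values were Benjamini-Hochberg adjusted over all genes of a layer. The depth step and the fits were tested on simulated data.

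The members, lists and tests were chosen with earlier results of these data known. Named genes were Trp53, Mdm2 and Mdm4; the 14 members with the largest called difference of at least 0.5 in total exons or 4sU introns; the 6 with the largest called rhythm; the 3 highest and 3 lowest in 4sU share; and Arntl, Cdkn1a and the 4 largest of the second list. Genes outside this rule are named where counts are spelled out. Alternatives were deposited scaling, another pseudocount, no filter, no time terms, time as a block, a common transcript length, a linear trend and each time left out; centring within transcript length bins was added after seeing the data.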

Additional observations from a re-analysis of the deposited data

Results flagged for a closer look

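Rrm2b was the only one of the 29 members tested in total exon minus 4sU intron whose line difference differed between exons and introns without overlap of the 12 libraries of each line. Its difference in exon minus intron was -1.08 ± 0.0811 (limma adjusted p = 3.41e-09, lower in shBmal1 at 12 of 12 times). Its exons were lower in shBmal1 in total RNA and in 4sU RNA, at -1.0 and -0.68, and its introns differed by 0.07 in 4sU RNA and -0.06 in total RNA. Groups of 12 libraries are too large for the test of single outlying libraries used for smaller groups, so none was run.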

How the results depend on the processing

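Counts of called line differences in total exons, 4sU exons and total introns stayed within 1.5 times under every alternative run. With RPKM as deposited, where the all-gene median moved by -0.45 in 4sU introns and 0.53 in exon minus intron, 7 members were higher and 11 lower in 4sU introns, and 28 higher and 1 lower in exon minus intron. In 4sU introns Trp53 (-0.22), Trp53inp1 (-0.27) and Zmat3 (-0.17) were then called lower. Apaf1 (-0.12), Bbc3 (-0.12), Ei24 (-0.08), Ccng1 (-0.02), Bax (-0.01), Rps27l (0.00) and Cdkn1a (-0.02) were no longer called. The calls of Tnfrsf10b (0.12), Eda2r (0.11), Phlda3 (0.13), Plk3 (0.07) and Ercc5 (0.11) were also lost. Mdm4 (-0.53), Fas (-0.59), Ddb2 (-0.57), Xpc (-0.47) and Rrm2b (-0.36) were newly called lower. In exon minus intron Mdm2 (0.28), Mdm4 (0.37), Apaf1 (0.40), Ei24 (0.17), Ccng1 (0.34), Ercc5 (0.22), Sesn1 (0.35) and Dcxr (0.21) turned from lower to higher, and Ep300 and Sirt1 stood at 0.05 and 0.07. A 24-h rhythm was then called for 1 member in shCTRL total exons and a 12-h rhythm for 1 in shBmal1 total exons. Of all 10912 genes, 457 and 154 were called in these 2 tests. Centring within transcript length bins, chosen after seeing the data, gave 5 lower members in 4sU introns and 1 rhythmic member (24 h) in shCTRL total exons. Of all 10911 genes, 469 were then called for that rhythm. Apaf1 stood at 0.00 in exon minus intron and Ep300 at 0.02 in total introns. A linear term for time left 0 members with a 24-h rhythm in shBmal1 total exons, 0 in 4sU exons and 0 in 4sU introns.

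Leaving out each time in turn gave 20 to 21 higher and 4 to 6 lower members in total exons, 19 to 22 and 3 to 4 in 4sU exons, 20 to 21 and 2 to 4 in 4sU introns, and 20 to 21 and 5 to 6 in total introns. It gave 5 to 7 higher and 2 to 6 lower in 4sU share, and 4 to 7 higher and 7 to 9 lower in exon minus intron. The 24-h calls in shBmal1 ranged from 1 to 7 in total exons, 4 to 15 in 4sU exons and 0 to 8 in 4sU introns, and in shCTRL total exons from 0 to 2. Over all 10912 genes the 24-h calls in shBmal1 total exons ranged from 376 (without 40 h) to 1826 (without 32 h). In shCTRL total exons they ranged from 202 (without 38 h) to 468 (without 46 h). The 12-h calls in shBmal1 ranged from 0 to 11 in total exons (11 without 32 h), 0 to 6 in 4sU exons and 0 to 2 in 4sU introns. Without 32 h, 1975 of all 10912 genes were called for a 12-h rhythm in shBmal1 total exons, against 2 with all times, so the rise was not particular to the members. Calls of a 24-h difference between the lines ranged from 0 to 1 in total exons and 0 to 6 in 4sU exons. Over all genes those in total exons ranged from 38 (without 40 h) to 171 (without 32 h). All-gene counts of these leave-outs are not given here for the 4sU layers. Whether the ranges in those layers were particular to the members was therefore not tested. Of the 24-h calls, those of Ei24, Mdm2 and Ppm1d in shBmal1 4sU exons held in each of the 12 leave-outs.

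The lines share time points only. Deviations of same-time libraries correlated between the lines at -0.18 to 0.41 in total exons, and 4 of 12 shBmal1 libraries correlated best with their own time. With time as a replicate block, 21 members were higher and 4 lower in total exons, 20 and 3 in 4sU exons, 21 and 2 in 4sU introns, 21 and 5 in total introns, 4 and 4 in 4sU share, and 5 and 9 in exon minus intron. Among the members, Tigar and Rrm2b had the lowest median reads in shBmal1 total RNA, 167 and 222 per library. Precision is limited by 1 library per time and 1 line of each kind.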

Other observations

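Among the 20 upstream regulators tested in total exons, the lower ones included the kinase genes Hipk2 (-0.65 ± 0.0377), Atm (-0.44 ± 0.0999) and Atr (-0.46 ± 0.0861), the acetyltransferase gene Ep300 (-0.52 ± 0.0314) and the deacetylase gene Sirt1 (-0.52 ± 0.0807). The checkpoint kinase gene Chek2 was higher (0.74 ± 0.0839). On 1 common transcript length Sirt1 differed by -0.34 and Chek2 by 0.69, since their lengths differed between the lines. With length centring Hipk2, Atm, Atr and Ep300 differed by -0.41, -0.21, -0.22 and -0.29, and with a pseudocount of 1 Atm and Atr by -0.23 and -0.26, all still called. These 6 were chosen after their values were seen. In 4sU introns Hipk2 was also lower (-0.56 ± 0.0640), while Ep300 and Sirt1 were not called (-0.01 ± 0.0405 and -0.04 ± 0.0428), and Chek2 was higher (0.42 ± 0.0752, or 0.17 with a pseudocount of 0.2).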
